A study of Caenorhabditis elegans with 60 samples.

Results

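Among 10298 genes measured in whole Caenorhabditis elegans worms, 62 genes known only by a sequence name had lower signal at the highest concentration of hexafluoropropylene oxide dimer acid (HFPO-DA, 4 g/L) than in unexposed worms. A gene was taken as unnamed when its symbol in the WBcel235 annotation, and in the RefSeq gene table, was only its sequence name, which held for 3910 genes. Of these, 2934 had a mean of at least 10 over the 60 libraries. The members were chosen by a mean log2(value + 1) at 4 g/L at least 0.8 below the control mean, with all 4 exposed values below all 4 control values, which held for 62. Differences between 4 g/L and control are therefore given as a description without a test. All 62 passed the filter on low values used in the tests (a value of 5 in at least 4 libraries), and all are annotated as protein-coding.

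A sequence name joins the name of the genomic clone on which a worm gene was predicted to a number within that clone, as in K08D8.4. A genetic name of letters and a number is added when a gene is tied to a mutant, a protein family or a homologue, so a gene left with the sequence name has transcripts and a gene model but often little published work. Pooled whole worms mix RNA of intestine, hypodermis, muscle, neurons and gonad. Hermaphrodites make sperm before oocytes, and the adult intestine makes yolk for the oocytes. In such bulk samples fewer cells of a type and less RNA per cell cannot be told apart. The annotation used here gave positions and gene models without product names, so the members are described by position, gene structure and signal.

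Every library was wild-type N2 (Bristol), a well of about 1000 pooled worms grown in S medium with E. coli HB101 from synchronised first-stage larvae for 48 h. HFPO-DA, a perfluorinated ether acid, was given at 14 concentrations, of which the 8 lowest start at 1.25e-05 g/L and the next 3 are 0.125, 0.25 and 0.5 g/L, followed by 1, 2 and 4 g/L, beside a control without it. Each of the 15 groups had 4 wells. Wells of 12-well plates were assigned to concentrations by randomisation, and sequencing of the poly(A) RNA was shallow. Whether the wells were separate worm cultures is not stated, so the p-values cover the spread between these wells, which may be technical. By a formula inferred from the deposited values, each holds a factor per gene and replicate number, which can take out part of that spread. Reads recovered from the deposited values numbered 999346 to 1914706 per library in the controls, 462117 to 2895556 at the 8 lowest concentrations, 1487013 to 1694730 at 2 g/L and 737039 to 1249951 at 4 g/L. The 4 g/L libraries were thus shallower (median 890603 reads) than the controls (median 1472382). Replicate 4 at 4 g/L and replicate 4 at 0.0313 g/L had the largest residual spread, each 1.48 times the median. Only these 2 passed a cut of 1.4, chosen after seeing the data. Replicate 2 at 0.00156 g/L (1.399) and replicate 3 at 4 g/L (1.390) lay just below it. Leaving out the 2 libraries past the cut left the counts of called members at 0, 1 and 6 for 0.5, 1 and 2 g/L. The control libraries had chosen the members, so later comparisons were made with the 32 libraries of the 8 lowest concentrations (all below 0.125 g/L), which the rule had not used beyond the mean over all libraries. A gene is called when its adjusted p from limma, over all 10293 genes tested, is under 0.05.

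At 4 g/L the members differed from the controls by -2.73 to -0.81 on the log2(value + 1) scale, with a median of -1.0. Of all tested genes, 9.68% had 4 libraries at 4 g/L below all 4 controls, and 2.79% had a difference of -0.8 or lower. Library by library, the median over members stood at -0.88, -1.0, -0.88 and -1.31 against the control mean in replicates 1 to 4 at 4 g/L. In each of these 4 libraries all 62 members were below their mean over the 8 lowest concentrations. Just inside the threshold were F55A11.8 and Y48G1C.12, both at -0.82, and R05G9.3 at -0.81, and just outside it H41C03.1 at -0.80, F31B9.3 at -0.79 and K11D12.13 at -0.79. On this scale the change of a gene with few reads comes out too small. At 4 g/L the members had 1 to 26422 reads over the 4 libraries (median 46.5), and 4 members had 10 reads or fewer.

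The control was also above the 8 lowest concentrations in 49 of the 62 members, with a median difference of 0.14, against 0.01 over all tested genes, of which 53.2% were higher in the control. Members were chosen partly for high control values, so this is a description as well. Set against the 8 lowest concentrations, the difference at 4 g/L ranged from -2.61 in D1086.3 to -0.25 in T04C12.8, with a median of -0.90 over members and -0.05 over all tested genes. In 16 members every library at 4 g/L lay below all 32 low-concentration libraries, as in 1.21% of tested genes. The members were chosen for low values at 4 g/L, so this too is a description. Among these 16 were the called genes D1086.3, T22B7.7, C17F4.7, R08F11.4 and Y39B6A.1, and in the other 46 members the groups overlapped.

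The question of onset was addressed at 2 g/L, where 6 of the 62 members were called lower than the 8 lowest concentrations, against 0.359% of all tested genes (37 genes). No member was called higher at 2 g/L, where 0.69% of tested genes were. The 6 were C17F4.7, R08F11.4, D1086.3, K08D8.4, T22B7.7 and Y39B6A.1. Of the 6, 5 are among the 10 members with the largest differences at 4 g/L, and Y39B6A.1 is the exception.

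C17F4.7 (chromosome II, 3245087 to 3246015, reverse strand of WBcel235, 558 coding bases in 2 exons) had the largest difference at 2 g/L. Its deposited signal was 267, 161, 339 and 292 in the 4 libraries at 2 g/L, against 678 to 1908 (median 1198) in the 32 low-concentration libraries. It was 324, 270.3, 277 and 178 at 4 g/L, against 565, 1554, 1290.5 and 1235 in the controls. All exposed libraries at both concentrations lay below every low-concentration library. The difference at 2 g/L was -2.21 ± 0.19 (SE, limma adjusted p = 8.74e-14), and the same gene differed by -2.21 at 4 g/L, so its signal did not go lower between the highest concentrations. At 1 g/L its signal was 1003, 629, 808 and 592, a difference of -0.68 ± 0.19 (SE, limma adjusted p = 0.186), which did not pass the test.

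R08F11.4 (chromosome V, 3803839 to 3805527, reverse strand, 1062 coding bases in 5 exons) was the member called at the lowest concentration. At 1 g/L its signal was 87.9, 64.2, 77.5 and 63.2, at 2 g/L 54.6, 44.2, 50.8 and 37.7 and at 4 g/L 34.8, 48.9, 32.9 and 30.0, against 78.9 to 195 (median 134) in the 32 low-concentration libraries and 103, 182, 122 and 154 in the controls. The 4 libraries at 2 g/L lay below all low-concentration libraries, whereas those at 1 g/L overlapped them, since 1 low-concentration library was at 78.9. The difference was -0.92 ± 0.14 at 1 g/L (SE, limma adjusted p = 1.37e-05) and -1.56 ± 0.14 at 2 g/L (SE, limma adjusted p = 6.92e-13). At 0.5 g/L its signal was 101, 72.4, 111 and 98.3, a difference of -0.55 ± 0.14 (SE, limma adjusted p = 0.287), which did not pass. With a term for sets of 12 consecutive sample numbers, runs of libraries that differ from each other, it did (-0.60, limma adjusted p = 0.0238).

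D1086.3 (chromosome V, 14092792 to 14093986, forward strand, 582 coding bases in 4 exons) had the largest difference from control at 4 g/L, at -2.73. Its signal was 81.6, 54.4, 117 and 89.9 at 2 g/L, against 113 to 246 (median 169) at the 8 lowest concentrations, a difference of -1.03 ± 0.16 (SE, limma adjusted p = 6.61e-06). It was 42.6, 23.0, 36.8 and 14.4 at 4 g/L, from 28, 10, 18 and 10 reads, against 129, 226, 189.7 and 207 in the controls, from 127, 254, 175 and 133 reads. The 4 libraries at 4 g/L were all below the lowest at 2 g/L, and 3 of the 4 at 2 g/L were below every low-concentration library.

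T22B7.7 (chromosome X, 5651865 to 5654074, reverse strand, 1179 coding bases in 5 exons) had 44.1, 13.7, 39.3 and 29.7 at 2 g/L, against 35.9 to 93.2 (median 55.7) at the 8 lowest concentrations. The groups overlapped, and the difference was -0.97 ± 0.23 (SE, limma adjusted p = 0.0165). Replicate 2 was the lowest of the 4, and without it the difference was -0.62 and did not pass (limma adjusted p = 0.389). Without replicate 4 it was -0.98 (limma adjusted p = 0.0929). At 4 g/L the gene was at 10.8, 6.56, 20.4 and 8.29, against 40.7, 66.0, 84.4 and 39.4 in the controls, with no overlap.

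K08D8.4 (chromosome IV, 12907469 to 12909998, reverse strand, 1641 coding bases in 9 exons) had 16.9, 11.2, 7.48 and 9.96 at 2 g/L, from 9, 11, 7 and 10 reads, against 7.60 to 48.4 (median 28.9) at the 8 lowest concentrations. The groups overlapped, and the difference was -1.20 ± 0.28 (SE, limma adjusted p = 0.0102). At 4 g/L it was at 14.6, 10.9, 14.8 and 6.99, against 46.0, 40.6, 39.6 and 28.7 in the controls. Its level was therefore about the same at both high concentrations (-1.15 against the 8 lowest at 4 g/L). The call was lost with voom on the recovered reads (limma adjusted p = 0.322) and without replicate 2, 3 or 4 at 2 g/L (limma adjusted p = 0.0531 to 0.107).

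Y39B6A.1 (chromosome V, 19201016 to 19203607, reverse strand, 2205 coding bases in 3 exons) had the smallest called difference, -0.46 ± 0.12 (SE, limma adjusted p = 0.0229). Its signal was 277, 373, 264 and 284 at 2 g/L, against 238 to 565 (median 413) at the 8 lowest concentrations, and 220.5, 231, 223 and 194 at 4 g/L, against 412, 449.9, 388 and 382 in the controls. Values at 2 g/L lay within the low-concentration range, whereas those at 4 g/L did not. The call was lost with voom (limma adjusted p = 0.0616) and without replicate 1, 3 or 4 at 2 g/L (limma adjusted p = 0.134 to 0.174).

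**Figure D1:**
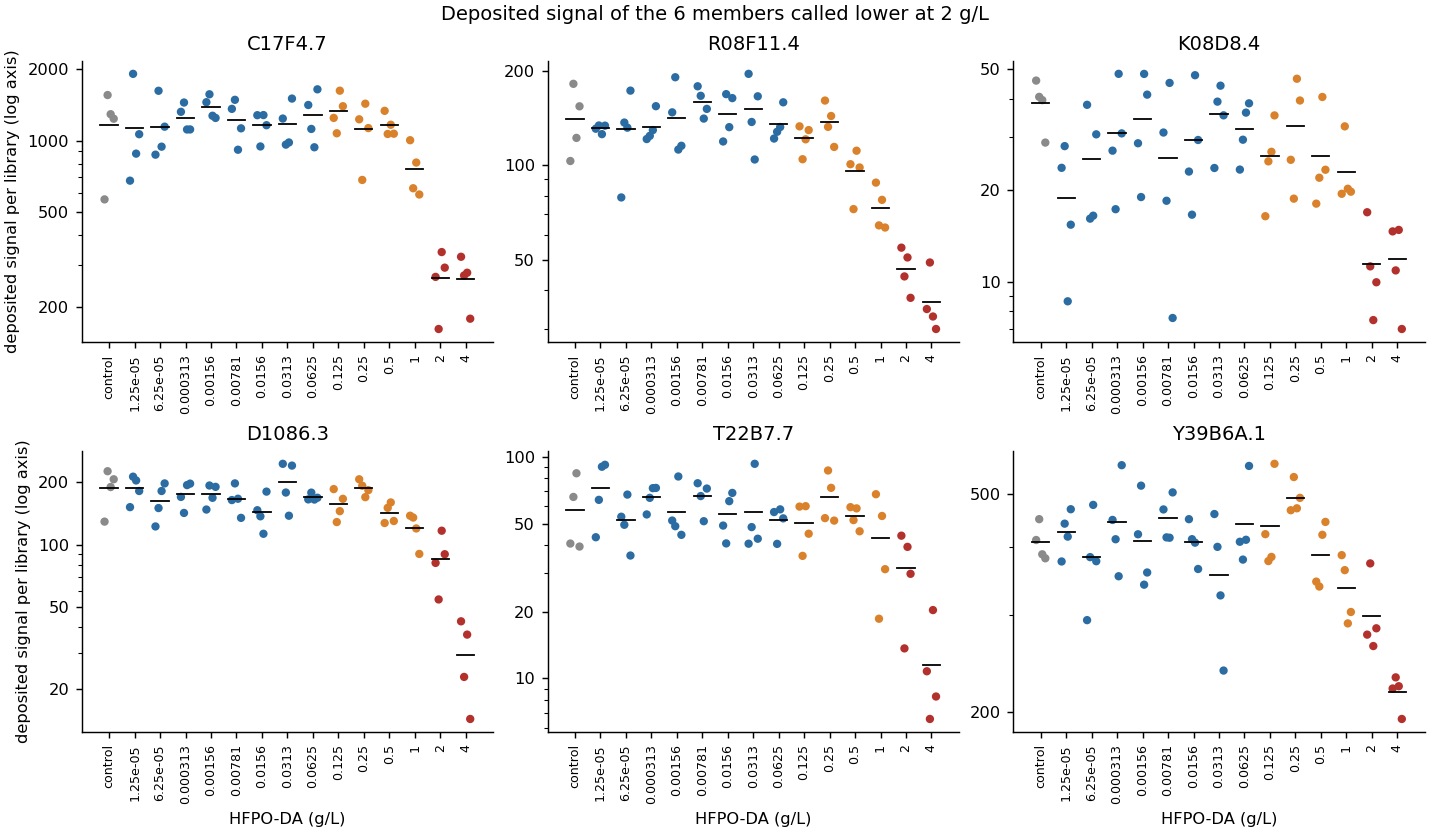
Deposited signal (log axis) in each of the 60 libraries, by concentration of HFPO-DA in g/L with the control at the left, for the 6 members called lower at 2 g/L. Points are libraries (grey control, blue the 8 lowest concentrations, orange 0.125 to 1 g/L, red 2 and 4 g/L) and bars are group means; C17F4.7 is level between 2 and 4 g/L, R08F11.4 is lower from 1 g/L on, and D1086.3 and T22B7.7 are lowest at 4 g/L.

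Libraries differ along the order of the sample numbers, so each of these differences was also read within sets of 12 consecutive numbers, of which 4 hold a library at 2 g/L. Within sets the difference at 2 g/L ranged from -2.48 to -1.82 in C17F4.7, from -1.71 to -1.39 in R08F11.4, and from -1.47 to -0.60 in D1086.3. It ranged from -1.61 to -0.59 in K08D8.4, from -1.65 to -0.28 in T22B7.7, and from -0.71 to 0.01 in Y39B6A.1. The first 5 were lower in 4 of 4 sets and Y39B6A.1 in 3 of 4. R08F11.4 at 1 g/L was lower in 4 of 4 sets as well, with differences of -0.98 to -0.71.

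At 1 g/L R08F11.4 was the only member called lower, among 6 of all tested genes (0.0583%), and no member was called higher, against 0.204% of tested genes. With the term for sample-number sets C17F4.7 was called as well (-0.67, limma adjusted p = 0.000678). At 0.125, 0.25 and 0.5 g/L limma called 0 members and 0.0% of tested genes lower. It called 0 members higher there as well, against 0.0% of tested genes at 0.125 g/L, 0.0194% at 0.25 g/L and 0.0486% at 0.5 g/L. At an unadjusted p under 0.05, 2 members were lower at 0.125 g/L, 0 at 0.25 g/L, 2 at 0.5 g/L (R08F11.4 and K08D8.5), 7 at 1 g/L and 19 at 2 g/L. Of all tested genes 1.16%, 1.58%, 1.71%, 2.68% and 5.24% were lower by that measure in the same order of concentrations. Higher by it, again in that order, were 0, 3, 0, 1 and 0 members, against 1.04%, 1.72%, 1.59%, 2.47% and 7.51% of all tested genes. Voom on the recovered reads called 0 members at each of 0.125, 0.25 and 0.5 g/L, 1 at 1 g/L and 4 at 2 g/L, against 0.0%, 0.0%, 0.0%, 0.00972% and 0.243% of all tested genes. By these calls the onset was 1 g/L in R08F11.4 and 2 g/L in 5 members. The other 56 members were not called at any of these concentrations, which does not show that they were level there.

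A slope over the rank of the 13 concentrations from 1.25e-05 to 2 g/L, which leaves out the groups used for choosing, was falling in 3 members, against 0.068% of tested genes (7 genes). Those were R08F11.4 (-0.085 ± 0.015 per rank, SE, limma adjusted p = 0.000121), D1086.3 (-0.054 ± 0.012, SE, limma adjusted p = 0.00983) and C17F4.7 (-0.089 ± 0.021, SE, limma adjusted p = 0.0198). T22B7.7 was next at -0.059 ± 0.016 per rank and did not pass (SE, limma adjusted p = 0.114). No member had a called rising slope, against 0.321% of tested genes. Without replicate 2 the slopes of C17F4.7 and D1086.3 did not pass (limma adjusted p = 0.651 and 0.103), nor without replicate 4 (limma adjusted p = 0.123 and 0.22). With voom the slope of C17F4.7 did not pass either (-0.087, limma adjusted p = 0.0819).

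The median over members, against the 8 lowest concentrations, was -0.02 at 0.125 g/L, 0.08 at 0.25 g/L, 0.01 at 0.5 g/L, -0.10 at 1 g/L, -0.24 at 2 g/L and -0.90 at 4 g/L, while over all tested genes it stayed between 0.00 and 0.01 from 0.125 to 2 g/L. Members below 0 numbered 33, 14, 30, 46, 55 and 62 in the same order of concentrations. Of all tested genes 47.0%, 46.7%, 46.6%, 49.4%, 48.4% and 54.2% were below 0, again in that order. The values at 4 g/L had chosen the members, so the last step is a description. The step between 2 and 4 g/L had a median of -0.68 and was downward in 60 members, the exceptions being C17F4.7 and K08D8.4. The step between 1 and 2 g/L had a median of -0.19 and was downward in 52. For both steps the share of all tested genes was not computed.

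**Figure D2:**
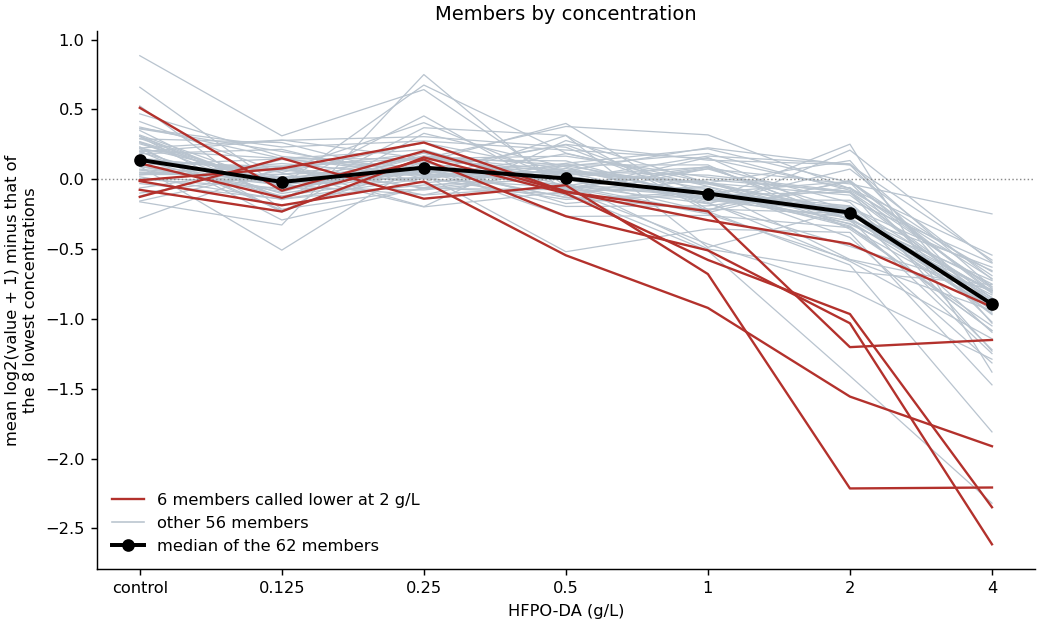
Mean log2(value + 1) minus that of the 8 lowest concentrations, for the control and 0.125 to 4 g/L of HFPO-DA, with 1 line per member. The 6 members called lower at 2 g/L are in red, the other 56 in grey, and the black line is the median over the 62, which stays near 0 up to 0.5 g/L and reaches -0.90 at 4 g/L.

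The difference at 2 g/L was a median of 26.5% of that at 4 g/L, on the log2(value + 1) scale and against the 8 lowest concentrations. The members were chosen for low values at 4 g/L, which can enlarge the difference there and make the share smaller. The share was under 25% in 28 members, 25 to 50% in 23 and 50% or more in 11. It reached 104% in K08D8.4, 100.3% in C17F4.7, 87.6% in F17C11.11 and 81.4% in R08F11.4, whereas D1086.3 and T22B7.7 stood at 39.5% and 41.1%. In 7 members the share was negative because the signal at 2 g/L was above that of the 8 lowest concentrations, down to -35.0% in F52B5.7. Of the 5 steps between neighbouring concentrations from 0.125 to 4 g/L, 3 were downward in 32 members, 4 in 25, 2 in 3 and all 5 in 2 members, C08F11.13 and T05E12.3. The lowest of the 15 group means was at 4 g/L in 58 members. The exceptions were C17F4.7 and K08D8.4, lowest at 2 g/L, F22H10.2, lowest at 1.25e-05 g/L, and T04C12.8, lowest at 0.00781 g/L. The highest group mean was the control in 19 members, 0.00156 g/L in 10 and 0.25 g/L in 9. The rule used the control and 4 g/L, so these counts of lowest and highest means are descriptions, as is the last of the 5 steps. Shares of all tested genes were not computed for them.

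**Figure D3:**
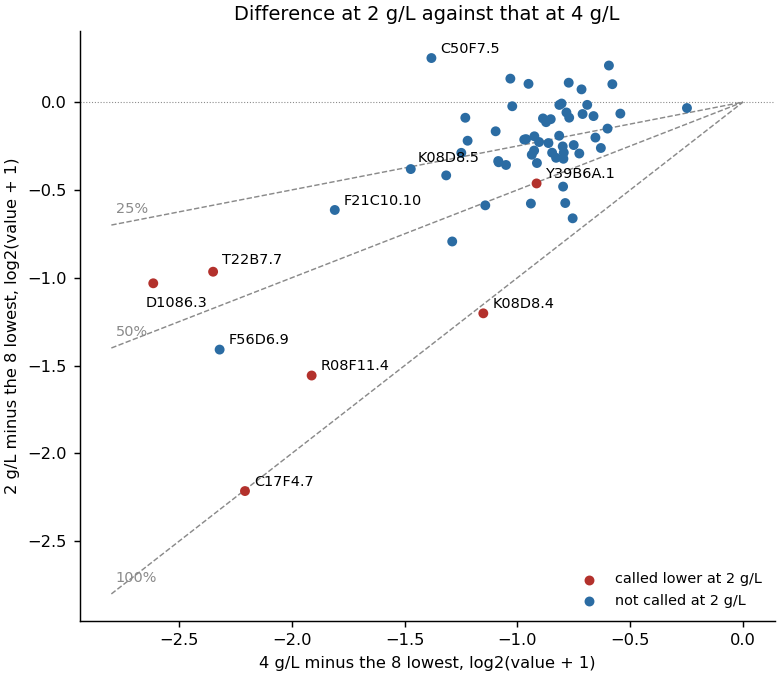
Difference from the 8 lowest concentrations at 2 g/L (vertical) against that at 4 g/L (horizontal), both of mean log2(value + 1), with 1 point per member. Dashed lines mark 25, 50 and 100% of the difference at 4 g/L; C17F4.7 and K08D8.4 lie at the 100% line, and most members lie between 0 and 50%.

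The other 5 of the 10 members with the largest differences from control were not called at 2 g/L. F21C10.10 (chromosome V, 9096267 to 9097220, forward strand), which overlaps a gene on the other strand, had 15.7, 35.5, 7.04 and 12.0 at 4 g/L, against 46.0, 91.4, 62.7 and 90.6 in the controls, a difference of -2.16, and 26.9 to 94.1 in the low-concentration libraries. At 2 g/L it was at 30.2, 75.3, 23.1 and 29.6, a difference of -0.61 ± 0.27 (SE, limma adjusted p = 0.342). Replicate 2 was the highest library of this gene at 1, 2 and 4 g/L, and the groups at 2 g/L and at the low concentrations overlapped.

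F56D6.9 (chromosome IV, 3892327 to 3893326, forward strand, 189 coding bases) is a short gene that overlaps another annotated gene on the same strand. It had 0, 1, 0 and 0 reads in the 4 libraries at 4 g/L, against 4, 59, 14 and 9 in the controls, a ratio of reads over library totals of 0.0181 with an exact binomial 95% interval of 0.000453 to 0.103. Its signal was 16.9, 7.56, 3.4 and 4.03 at 2 g/L against 3.44 to 56.0 at the low concentrations, and the difference of -1.41 ± 0.47 did not pass (SE, limma adjusted p = 0.164).

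C50F7.5 (chromosome IV, 7726719 to 7727639, forward strand, a single-exon gene of 918 coding bases) had 1, 0, 1 and 0 reads at 4 g/L, against 10, 9, 13 and 5 in the controls, a ratio of 0.0840 with an interval of 0.00981 to 0.326. Its signal was 6.17, 33.4, 7.88 and 12.8 at 2 g/L, against 4.98 to 21.2 at the low concentrations, and replicate 2 was above all of them. The 4 libraries at 4 g/L, at 4.23, 2.85, 3.64 and 2.52, were below every low-concentration library. The difference at 2 g/L was 0.25 ± 0.27 (SE, limma adjusted p = 0.74), so no lower signal was detectable at 2 g/L. These intervals, like all from reads, pool the 4 libraries of a group and cover counting error only. They compare the groups that had chosen the members, so they are a description and no test.

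F22H10.2 (chromosome X, 16679540 to 16679797, forward strand, a single-exon gene of 255 coding bases) had 45.0, 49.3, 11.1 and 26.9 at 4 g/L, against 161, 114, 70.6 and 59.6 in the controls. Its low-concentration libraries ranged from 10.8 to 118.5 and enclosed all exposed values, so that the difference was -1.67 against control and -0.79 against the 8 lowest concentrations. K08D8.5, the neighbour of K08D8.4, had 8.25, 3.03, 2.83 and 3.85 at 4 g/L, from 3, 0, 0 and 2 reads, against 13.3, 22.7, 17.6 and 10.6 in the controls, from 8, 24, 16 and 7 reads. The ratio of reads was 0.141 with an interval of 0.0442 to 0.350. At 2 g/L it was at 14.1, 11.6, 5.44 and 10.6, against 3.95 to 22.5 at the low concentrations, a difference of -0.38 ± 0.25 (SE, limma adjusted p = 0.543).

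F23A7.4 (chromosome X, 16212606 to 16212812, forward strand, a single-exon gene of 204 coding bases) had by far the highest signal of the members. Its mean signal over the 60 libraries was 18102, or 88736 per 1000 coding bases, against 1887 per 1000 coding bases in C17F4.7, the next. It had 10660.4, 9608, 14670.2 and 8267 at 4 g/L, against 14923, 21652, 20633 and 22602 in the controls, a difference of -0.90. Its difference at 2 g/L was -0.48 ± 0.16 and did not pass (SE, limma adjusted p = 0.179). Of the 5 members with the highest signal, Y39B6A.1 ranked 16 by signal per 1000 coding bases (178). Whether reads rise with coding length in these libraries is not given in the sources used here. Deposited values also hold an inferred factor per gene and replicate number, from 0.445 to 3.18, so levels of different genes compare only roughly.

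F18A1.7 (chromosome II, 7662706 to 7663754, reverse strand) averaged 219 ± 56.7 at 4 g/L and 390.5 ± 50.9 in the controls (SD, n = 4 each). All 4 libraries at 4 g/L lay below the lowest of the 32 low-concentration libraries, at 297. ZK813.2 (chromosome X, 3443826 to 3444191, forward strand) averaged 116 ± 26.1 at 4 g/L and 321 ± 93.3 in the controls (SD, n = 4 each), with the low-concentration libraries from 159.6 to 452. Neither was called at 2 g/L, where the differences were -0.32 ± 0.10 (SE, limma adjusted p = 0.148) and -0.22 ± 0.17 (SE, limma adjusted p = 0.614).

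Most members lay apart from each other in the genome, though genes without a value here could not be members. With at most 10000 bases between gene bodies, 2 pairs and no larger group were found. K08D8.4 and K08D8.5 on chromosome IV are neighbours 648 bases apart on the same strand, and D1086.3 and D1086.1 on chromosome V are 4871 bases apart on the same strand with 2 protein-coding genes between them. The next closest pairs were W02D9.4 and W02D9.6 on chromosome I (21425 bases), F21C10.10 and F21C10.11 on V (26265 bases), F55A12.2 and F27C1.4 on I (55905 bases) and Y39B6A.10 and Y39B6A.1 on V (67408 bases). In all, 5 clones hold a pair of members. Of the 62 members, 2 (3.23%), K08D8.4 and K08D8.5, sit next to another member among protein-coding genes. Of 3848 other unnamed genes of the table, 31 (0.806%) sit next to a member.

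In each of the 2 close pairs 1 member was called at 2 g/L. K08D8.4 was called at 2 g/L and K08D8.5 was not (-1.20 and -0.38 against the 8 lowest concentrations), though they differed from control by -1.66 and -1.68 at 4 g/L. D1086.3 was called at 2 g/L and D1086.1 was not (-1.03 and -0.19), and at 4 g/L they differed from control by -2.73 and -1.01. Whether the members of a pair differ from each other was not tested. D1086.8 and D1086.2, which lie between D1086.3 and D1086.1, differed from control by -0.14 and -0.21 at 4 g/L, and K08D8.3, on the other side of K08D8.4, by -0.10. D1086.5, the nearest gene with a value on the other side of D1086.3, differed by -0.78.

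**Figure D4:**
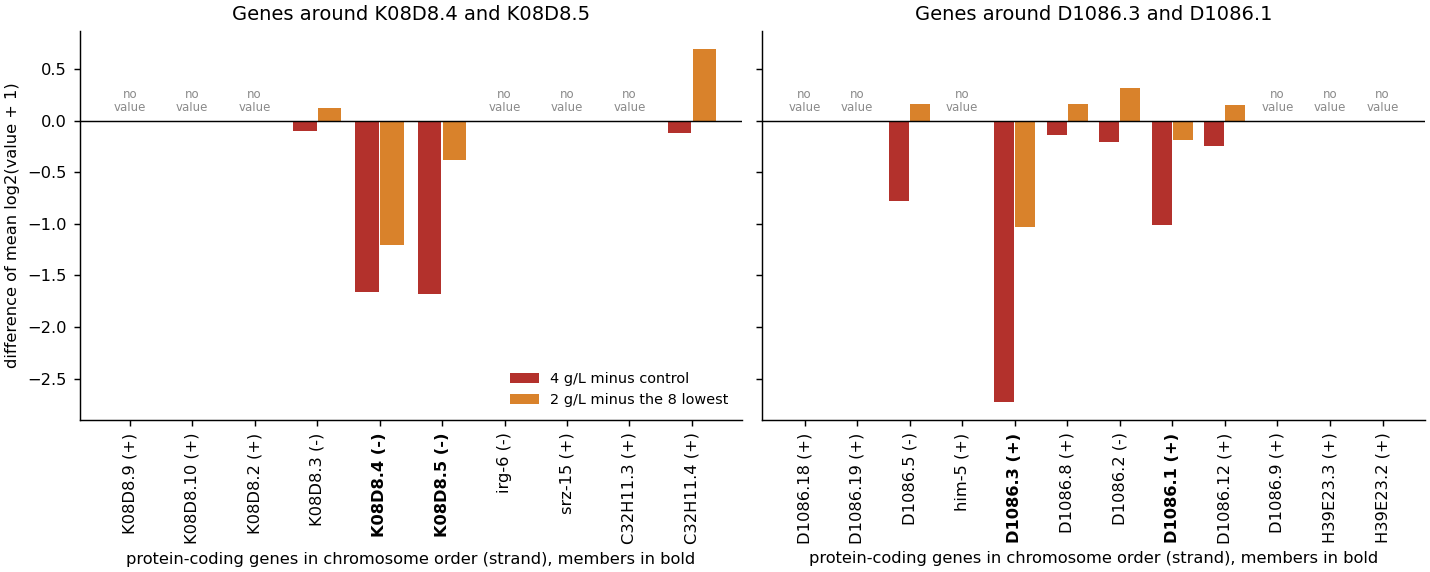
Difference of mean log2(value + 1) for the protein-coding genes around the 2 close pairs, in chromosome order with the strand in brackets and members in bold. Red bars are 4 g/L minus control and orange bars 2 g/L minus the 8 lowest concentrations. Genes marked no value were not analysed here. Among the genes with values the 4 members have the largest differences at 4 g/L, by which they were chosen.

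Of 73 distinct protein-coding neighbours that are not members and were tested, 0 were called at 2 g/L in either direction by limma or by voom. At an unadjusted p under 0.05, 7 were lower (9.59%, against 5.24% of all tested genes) and 2 higher (2.74%, against 7.51%), and their median difference there was -0.05, against 0.01. At 4 g/L their median difference from control was -0.15, against -0.05 over all tested genes, and 2 of them (2.74%) were at -0.8 or lower, against 2.79% of all tested genes. These were fmo-1 beside K08C7.1 and dyf-17 beside Y39B6A.10, at -1.12 and -0.88 (named after their values were seen). By chromosome, 12 members were on I, 10 on II, 4 on III, 11 on IV, 15 on V and 10 on X. Chromosome III held 6.45% of members and 16.6% of the other 2872 unnamed genes with a mean of at least 10, and chromosome V 24.2% and 17.3%.

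The members were on the whole shorter than other unnamed genes. Their annotated coding length, which leaves out the stop codon, had a median of 687 bases, against 906 bases in the other 2872 unnamed genes, and they had a median of 4 exons, against 5. Coding length was under 300 bases in 10 members (16.1%, against 7.17% of the others) and under 450 bases in 20 (32.3%, against 17.8%). A single exon was annotated in 7 members (11.3%, against 1.92%), which were F22H10.2, C50F7.5, F27C1.4, ZK813.2, W02D9.6, C07H6.2 and F23A7.4. None of the 7 was called at 2 g/L, but only 9.68% of the 62 members were, so 7 genes are too few to show a difference. The 6 called members had 558 to 2205 coding bases. These shares are descriptions without a test. Of the 62 members, 18 overlap another annotated gene, 4 of them on the same strand and 15 on the other. The strand setting of the counting is not given in the sources used here, so reads of these 18 may belong in part to the overlapping gene. None of the 6 called members overlaps another gene, though 6 genes are too few to set against 18 of 62.

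Marker lists of tissues were read at 4 g/L beside the members. Relative to control, 4 of 6 yolk genes were called lower (median -1.18), 9 of 16 oocyte and eggshell genes (median -0.57), 3 of 12 germ line genes (median -0.33) and 15 of 19 proteasome genes (median -0.38), with 0 called higher in each list. Called higher were 3 of 17 sperm genes (median 0.67), 4 of 10 intestinal genes (median 0.45), 4 of 9 muscle genes (median 0.47), 3 of 8 neuronal genes (median 0.45) and 4 of 7 hypodermal genes (median 1.097), with 1 intestinal and 1 hypodermal gene lower. Of all tested genes, 13.7% were called lower and 14.7% higher. Summed yolk signal was 13675 to 25299 at 4 g/L and 25329 to 42359 in the controls, summed oocyte and eggshell signal 5321 to 7780.1 at 4 g/L and 8482 to 10888 in the controls, and summed sperm signal 6216 to 11228 at 4 g/L and 3249.9 to 8409 in the controls. The sperm sums overlapped and its share of genes called higher, 17.6%, was near that of all tested genes. Summed hypodermal signal was 20866 to 28039 at 4 g/L and 23283 to 30359.8 in the controls, so the sums overlapped and lay lower at 4 g/L although most of its genes were called higher. Summed signal was 8679.9 to 11255 at 4 g/L and 6079 to 8268 in the controls for intestine, 7362 to 9508 and 5486 to 7680.4 for muscle, and 359.96 to 498 and 287 to 387 for neurons. It was 2321 to 2859 at 4 g/L and 2976 to 3342 in the controls for germ line, and 4825 to 5897 and 6119 to 7442 for the proteasome. Of the 104 measured markers of 108 listed, 0 had no read in a whole group at 4 g/L or in the controls. The part of these tissues in the values of the members was not tested.

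At 2 and 1 g/L limma called 0 genes of any of these 9 lists in either direction against the 8 lowest concentrations, and so did voom. At an unadjusted p under 0.05, 0 of the 104 genes were lower and 2 higher at 1 g/L (1.92%), against 2.68% and 2.47% of all tested genes. At 2 g/L 13 were lower (12.5%) and 14 higher (13.5%), against 5.24% and 7.51%. List means still overlapped those of the low-concentration libraries at 2 g/L for yolk (-0.57 to -0.09, against -1.49 to 0.51) and sperm (-0.17 to 1.11, against -0.80 to 0.99). The hypodermal list mean at 4 g/L was -0.29 in replicate 1 and 0.51 to 1.04 in the others. In replicate 4 at 0.0313 g/L yolk stood at -1.49, oocyte and eggshell genes at -0.92 and muscle genes at -1.11, whereas the median over members was 0.35, the highest of the 32 low-concentration libraries. At 4 g/L yolk stood at -0.84, -1.42, -0.64 and -1.83 in replicates 1 to 4, and the median over members at -0.77, -0.91, -0.73 and -1.24.

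**Figure D5:**
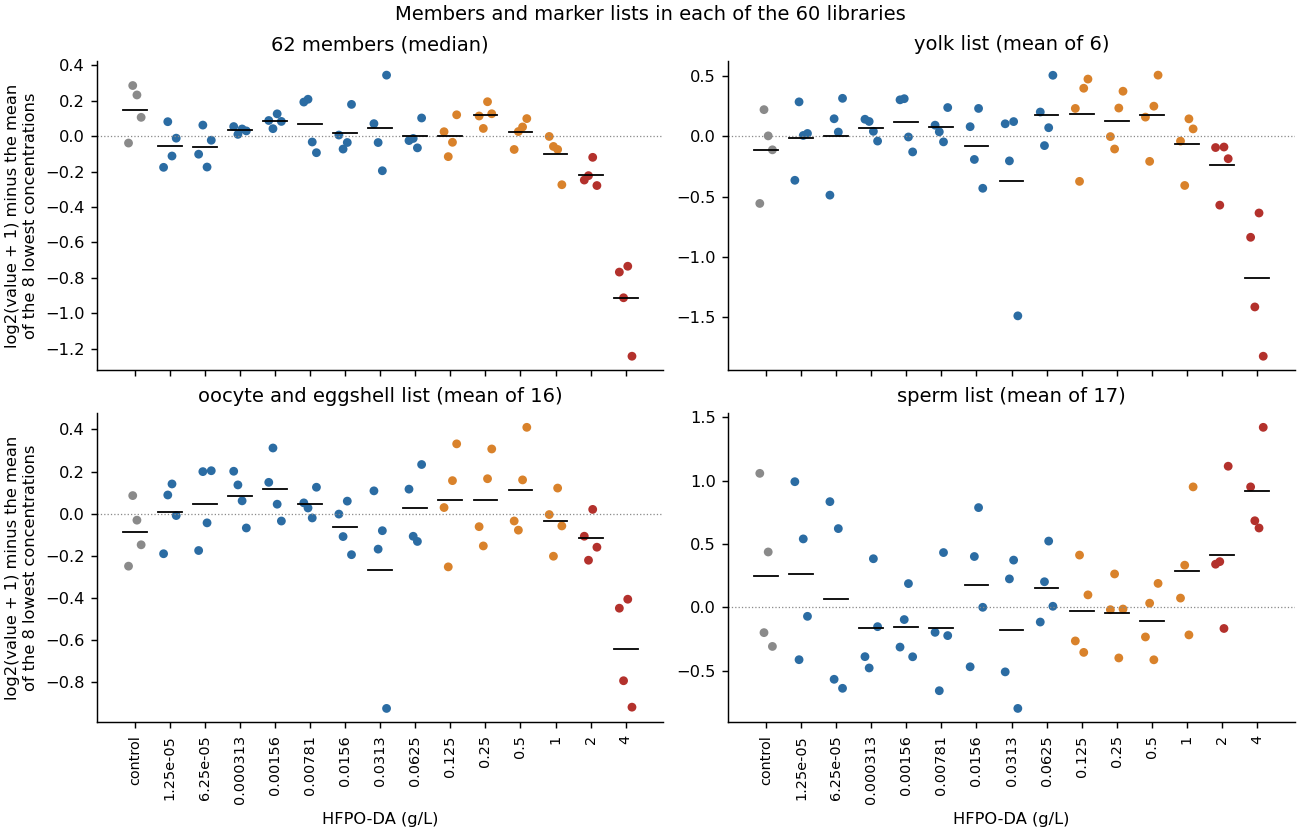
Median over the 62 members, and means over the yolk, oocyte and eggshell, and sperm lists, in each of the 60 libraries, as log2(value + 1) minus the mean of the 8 lowest concentrations; bars are group means, and points are grey for the control, blue for the 8 lowest concentrations, orange for 0.125 to 1 g/L and red for 2 and 4 g/L. The members and the yolk and oocyte lists are lowest at 4 g/L, and 1 library at 0.0313 g/L has low yolk and oocyte values with a high member median.

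Named genes with the same change at 4 g/L had counts of the same order. Past the same values of mean, difference and separation were 85 genes with a genetic name in the annotation or the RefSeq table. Of these, 10 were called lower at 2 g/L (11.8%, against 9.68% of the 62 members) and 1 at 1 g/L, and their median differences were -0.95 at 4 g/L against control and -0.22 at 2 g/L against the 8 lowest concentrations. Of the 57 unnamed genes that passed the difference but whose groups overlapped, 3 were called lower at 2 g/L. The members and these genes were set beside each other as a description.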

How the data were processed

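For 10298 genes in 60 libraries the authors deposited 1 table of normalised signal, with no raw counts in it. Per the submitters' processing notes, the build was WBcel235 and the tools included edgeR 3.36.0, HTSeq 2.0.1, STAR 2.7.10a, Trimmomatic 0.39 and UMI-tools 1.1.2. Of how reads were turned into it, nothing more is given in the sources used here. Each value equals a factor per gene and replicate number times 1 plus scaled reads, plus 1. With it 100% of 617880 values gave whole reads within 0.0001 reads, of which 1.07% were reads of 0, and depth is taken from these reads. It ranged from 462117 to 4522107 reads per library, which limits what can be seen in genes of few reads.

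Identifiers were matched to the WBcel235 annotation by sequence name (10295 of 10298) and to the RefSeq gene table (10294). The deposited signal was tested as log2(value + 1) with limma 3.58.1 in R 4.3.3, with an intensity trend and 15 group means in 1 fit, on 10293 genes (a value of 5 or more in 4 or more libraries). Contrasts set 0.125, 0.25, 0.5, 1 and 2 g/L against the mean of the 8 lowest concentrations. A second fit gave 1 slope per gene over the rank of 13 concentrations. Two-sided p-values of each contrast were adjusted (Benjamini-Hochberg) over all genes tested, and calls were made at 0.05. Samples were grouped by their titles. Python 3.11.15 with numpy 2.4.6, pandas 2.3.3, scipy 1.17.1 and matplotlib 3.10.9 was used for tables, intervals and plots.

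The members and lists were chosen with earlier results of these data known. Named genes are the 10 members with the largest difference at 4 g/L, all those called at a concentration, the 5 with the highest mean, the closest pairs, those nearest to the threshold and the 4 with the smallest slope p. Families of proteins were not analysed here. Other pseudocounts, filters and scalings, the replicate number or sets of 12 sample numbers as a term, voom on the recovered reads and fits without single libraries were tried. The combination of voom with the set term, and the fit without the 2 libraries of large residual spread, were chosen after seeing the data.

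The limma contrasts and the slope were tested on simulated data with a fixed spread between libraries. At 2 g/L a simulated log2 change of -2 was called in 45 of 50 genes (90%) and one of -1 in 27 of 50 (54%). The median estimates were -1.69 and -0.78, so smaller changes can be missed and come out too small. Of 10093 unchanged genes 5 were called. The simulation gave all genes the same spread and held no differences along the sample numbers and no factor per gene and replicate number. These rates can therefore differ from those in the real libraries.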

Additional observations from a re-analysis of the deposited data

Results flagged for a closer look

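In 45 groups of 4 libraries of the named members and of the median over members, 2 held a library far from the other 3, and chance flags about 1 in 20 such groups. The signal of F18A1.7 in replicate 3 at 2 g/L was 355.2, with the next highest library at 282. The signal of ZK813.2 in replicate 2 at 2 g/L was 162.5, with the next lowest library at 246. Both genes belong to the 5 members with the highest mean signal, and neither was called at 2 g/L.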

How the results depend on the processing

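Of 206 recomputed differences and slopes of the called genes none changed sign. The median over members did turn its sign in 4 of 23 alternatives at 0.125 g/L (-0.05 to 0.03) and in 4 of 23 at 0.5 g/L (-0.01 to 0.05), where it lay near 0, and in none at 0.25, 1 and 2 g/L. The count of members called at 2 g/L was 6 under other pseudocounts, filters, median ratio rescaling, the set term and the replicate block, 8 with quantile normalization and 4 with voom, and 3 to 5 without single replicates at 2 g/L, the lowest without replicate 4. With the set term 2 members were called at 1 g/L and 1 at 0.5 g/L, with either limma on the deposited values or voom. The count of falling slopes was 3 with the replicate block, 2 with voom and 1 to 4 without single replicates, the lowest without replicate 4. Same-numbered libraries did not deviate together (180 pairs, correlations -0.49 to 0.53, median -0.02). By the inferred formula each deposited value holds a factor per gene and replicate number, which can take out what same-numbered libraries share. Neither these correlations nor the replicate block can therefore show whether such libraries belong together. The replicate block left 0, 0, 0, 1 and 6 members called at 0.125, 0.25, 0.5, 1 and 2 g/L. The median difference at 4 g/L against control was -1.19 with quantile normalization, -0.97 after median ratio rescaling, -1.07 to -0.96 without single libraries and -0.90 against the 8 lowest concentrations. Quantile normalization moved the median of all genes at 4 g/L to -0.12, and the members to -1.05 against the 8 lowest concentrations. The rule gave 69 members with a pseudocount of 0.5, 45 with 5 and 55 after median ratio rescaling. Of 206 recomputed values of the 10 named calls, 15 missed the threshold, in 5 calls given above beside the gene. The shallow depth at 4 g/L limits genes of few reads most.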

Other observations

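F17C11.11 on chromosome V and C10G8.4 on the same chromosome, chosen after their values were seen, differed in shape without a call at 2 g/L. F17C11.11 was at 120.2, 142, 83.1 and 72.0 at 2 g/L and at 121, 116, 60.0 and 93.1 at 4 g/L, against 60.7 to 286 (median 162) at the 8 lowest concentrations. Its difference at 2 g/L was -0.66 ± 0.22 (SE, limma adjusted p = 0.165), 87.6% of that at 4 g/L. C10G8.4 was at 200.1, 204, 174 and 227 at 2 g/L and at 137, 69.8, 114 and 61.0 at 4 g/L, against 115 to 292 (median 215) at the 8 lowest concentrations. Its difference at 2 g/L was -0.09 ± 0.14 (SE, limma adjusted p = 0.844), 7.25% of that at 4 g/L. Both genes overlapped the low-concentration range at 4 g/L.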
